A study of Mus musculus with 18 samples.

Results

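The immediate-early and dissociation stress genes Fos, Fosb, Jun, Junb, Egr1, Atf3, Klf6, Nr4a1, Ier2 and Dusp1 were followed through sorted cells of the mouse mammary gland. They were taken by gene symbol from the deposited expression table, where no symbol was repeated, and are 10 of its 46257 gene IDs. All 10 were among the 22315 genes tested. Fluorescence-activated sorting had isolated basal cells, which form the outer, contractile epithelium, and luminal cells that line the duct. The luminal cells were split by estrogen receptor into ER+ cells, which respond directly to ovarian hormones, and ER- cells. Glands were taken at puberty, in adulthood and in mid pregnancy. These 9 groups held 2 libraries each, 18 in all. Every group carried the genotype ERrtTA/TetOCre/rosaYFP, a tetracycline-controlled Cre with a fluorescent reporter, and no group without these alleles was analysed here. The sources used here give no ages, sorting gates, doxycycline treatment or digestion protocol. Nothing states that the 2 libraries of a group came from separate animals, and the p-values therefore reflect only how far these samples differ, which may be technical.

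Immediate-early genes are transcribed within minutes of a stimulus without new protein synthesis, from growth factors to mechanical and enzymatic stress, and their short-lived messages fade when the stimulus ends. Fos and Jun proteins pair to form the AP-1 transcription factor, Egr1 and Klf6 are zinc finger factors, Nr4a1 is an orphan nuclear receptor, and Dusp1 is a phosphatase that switches off the kinases that induced it. Tissue digestion and sorting are known to induce the same genes in many tissues, the mammary gland among them. No undigested tissue was among these libraries, so levels in the gland and levels induced during isolation cannot be told apart. In bulk samples, fewer cells that express a gene and less RNA per cell cannot be told apart either.

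RefSeq start regions on GRCm38.p6, 250 bases before to 50 bases after 1 start per gene, were matched by symbol for 8 of the 10 genes. Egr1 and Ier2 had no entry. Capitals mark TGACGT, the core of the site bound by CREB and ATF factors, searched on both strands. It lay in the windows of Fos, Dusp1 and Atf3, 3 of 8, and in 7.51% of 32851 such windows. These 3 are shown with Klf6, which has no match and whose level followed that of Atf3 most closely among the 10. The Fos window is chr12:85473640-85473939 on the plus strand, that of Dusp1 chr17:26508423-26508722 on the minus strand, that of Atf3 chr1:191183284-191183583 on the minus strand and that of Klf6 chr13:5861239-5861538 on the plus strand.
Fos: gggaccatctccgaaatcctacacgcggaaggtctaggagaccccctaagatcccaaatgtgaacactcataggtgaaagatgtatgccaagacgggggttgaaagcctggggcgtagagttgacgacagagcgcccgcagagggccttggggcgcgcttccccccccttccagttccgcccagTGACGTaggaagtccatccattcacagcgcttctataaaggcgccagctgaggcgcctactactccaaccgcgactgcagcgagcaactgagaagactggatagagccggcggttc
Dusp1: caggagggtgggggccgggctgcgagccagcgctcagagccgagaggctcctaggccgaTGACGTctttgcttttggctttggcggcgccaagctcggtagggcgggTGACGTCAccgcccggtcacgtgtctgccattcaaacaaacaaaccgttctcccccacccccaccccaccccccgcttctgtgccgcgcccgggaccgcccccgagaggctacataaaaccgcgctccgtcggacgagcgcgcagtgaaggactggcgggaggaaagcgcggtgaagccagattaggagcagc
Atf3: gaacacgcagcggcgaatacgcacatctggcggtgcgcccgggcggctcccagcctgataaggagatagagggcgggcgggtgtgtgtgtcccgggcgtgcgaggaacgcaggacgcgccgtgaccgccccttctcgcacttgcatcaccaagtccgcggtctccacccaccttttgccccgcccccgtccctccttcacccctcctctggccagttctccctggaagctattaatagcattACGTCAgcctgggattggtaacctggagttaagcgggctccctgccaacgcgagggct
Klf6: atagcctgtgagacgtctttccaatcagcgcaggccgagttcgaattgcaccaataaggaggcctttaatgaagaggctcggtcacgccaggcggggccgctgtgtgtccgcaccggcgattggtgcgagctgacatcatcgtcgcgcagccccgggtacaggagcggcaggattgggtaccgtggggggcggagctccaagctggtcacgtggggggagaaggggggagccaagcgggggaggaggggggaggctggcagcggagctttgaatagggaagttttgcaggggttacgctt
In Fos the match begins 66 bases upstream of the start. Dusp1 has matches 191 and 143 bases upstream, and the second overlaps a match on the opposite strand. In Atf3 it is on the opposite strand, 8 bases upstream. The AP-1 motif TGANTCA was in 0 of the 8 windows and in 7.81% of all windows, and the CArG box bound by SRF was in 0 of 8 and in 1.63%. TATAAA was found in Fos, 33 bases upstream of the start, and in Junb, not upstream but at or after the start (13.6% of all windows). GCGGGGGCG, which EGR factors bind, was found in Fosb and Nr4a1 (2.91%). A match is a run of letters and was not tested as a binding site. Sequence more than 250 bases upstream, and all of Egr1 and Ier2, was not searched, so 0 of 8 does not mean that these genes lack such sites.

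Values were read as counts scaled to a common total of 20000000 per library, which is an inference. The values of the gene IDs kept summed to 19819213 to 19881049 per library. The depth behind them, recovered from steps between low values, was 7674862 to 11292227 reads in genes at puberty, 2406226 to 7900557 in adulthood, with the 4 luminal libraries at 3165238 or fewer, and 5280331 to 6363534 in pregnancy. The value of 1 read was at most 8.2472, and the lowest member value was 3204, for Dusp1. Adult luminal libraries held the most mitochondrial transcripts, 4.73% to 7.07% of the total against 0.62% to 3.26% elsewhere. Groups follow the sample titles, although the cell type label of puberty and pregnancy basal libraries names luminal cells. The basal keratin gene Krt5 followed the titles, at 8205 or more in the 6 basal libraries and at 1127 or less in the 12 luminal ones. Krt8, a marker of both luminal populations, overlapped, at 6678 to 19646 in basal and 13720 to 39122 in luminal libraries. Its values in adult basal cells were 19646 and 13740. Esr1, the estrogen receptor gene, was at 2096 to 24264 in ER+ and 683 to 3246 in ER- libraries, a range that overlaps through pregnancy ER+ replicate 2, which also held 11434 of the ER- marker Elf5. In puberty ER+ cells the endothelial gene Pecam1 was at 3057 in replicate 1 and 202 in replicate 2, and the fibroblast gene Col1a1 at 4416 in replicate 1 and 16632 in replicate 2.

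All 10 genes were strongly expressed in every group. Together they made up 0.897% (pregnancy ER- replicate 2) to 2.442% (puberty ER- replicate 2) of a library, and Fos and Fosb supplied 27.9% to 46.8% of that sum. By rank among all genes of a library, Fos lay between 4 and 31, Fosb between 5 and 45, Egr1 between 10 and 38 and Jun between 16 and 76. Dusp1, the most variable member, ranked from 80 to 1253 and spanned 5.99-fold between its lowest and highest library. Ier2, which encodes a small nuclear protein induced by growth factors, spanned 2.21-fold, the least of the 10. Per kilobase of exon, the mean level was 23620 for Fos, 11960 for Egr1, 10260 for both Jun and Fosb, 9449 for Atf3, 7667 for Klf6, 6208 for Junb, 4389 for Ier2, 4024 for Nr4a1 and 3133 for Dusp1. Ordered by group mean, neighbouring groups overlapped in their libraries at all 8 steps for Fos, Egr1 and Ier2, at 7 for Fosb and at 6 for the other members. No single order of groups held for the members. The highest group mean was in puberty basal cells for Fos and Dusp1, puberty ER+ for Jun, Atf3 and Klf6, puberty ER- for Fosb and Nr4a1, adult basal for Junb, adult ER- for Egr1 and pregnancy ER- for Ier2.

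**Figure D1:**
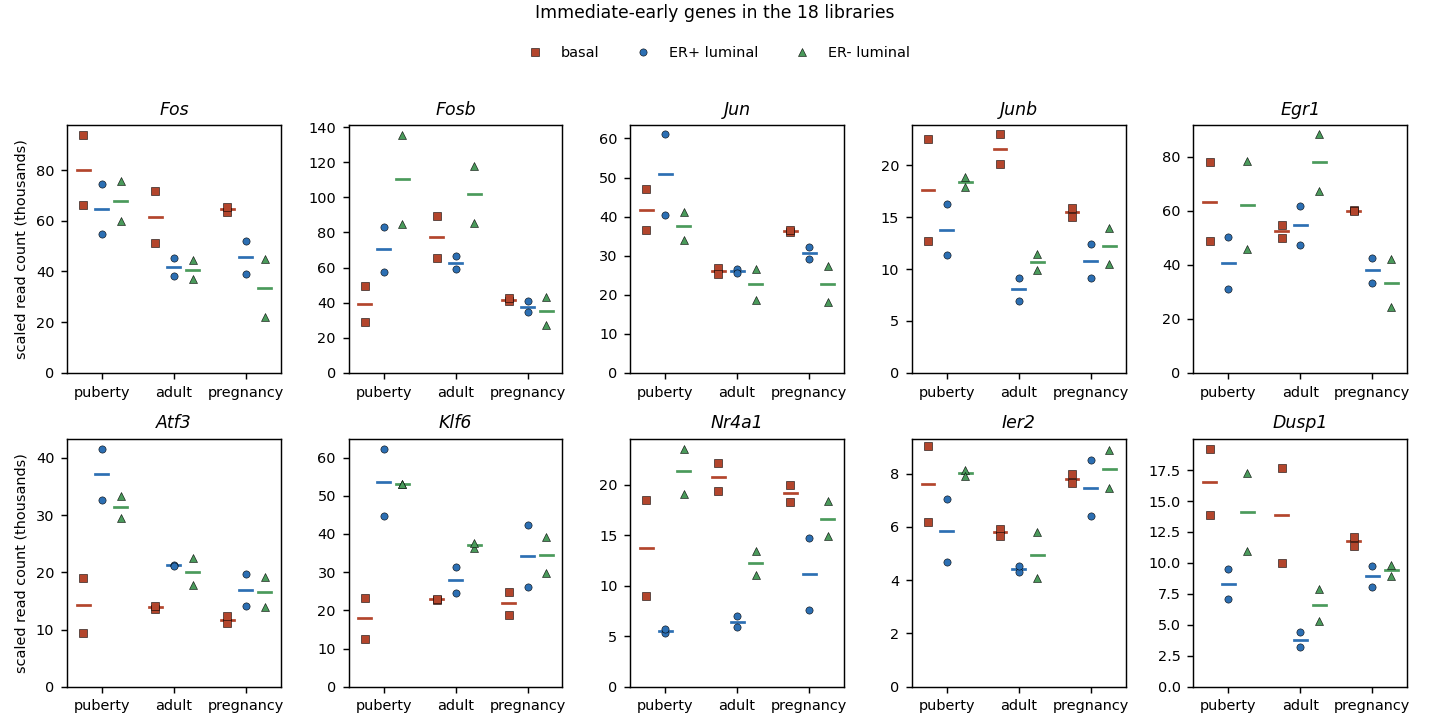
Scaled read counts (vertical axes, from 0, in units of 1000) of the 10 genes at puberty, in adulthood and in pregnancy, with 1 point per library and a bar at the mean of each 2-library group. Klf6 and Atf3 lie lowest in basal cells at each stage, Nr4a1 lies lowest in ER+ luminal cells, and Fosb and Egr1 fall in pregnancy ER- luminal cells to 35170 and 33270 on average, against 101700 and 77970 in adult ER- luminal cells.

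Basal cells were compared with luminal cells, averaged over the 3 stages, to ask whether the stress genes follow lineage. They did not move as a block. Basal cells had less Klf6 and Atf3 and more Dusp1, Nr4a1, Junb and Fos, whereas Fosb, Egr1, Jun and Ier2 did not pass the test. Of the 10 genes, 6 were called, 4 higher and 2 lower, at an adjusted p under 0.05 (limma on log2(value + 1), Benjamini-Hochberg over 22315 genes). Among all genes tested 42.5% were called, 20.9% higher and 21.5% lower. The members' median log2 fold change was 0.225, against -0.031 over all genes.

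Klf6, a zinc finger factor gene (chromosome 13, 5861482 to 5870394, plus strand), was at 12547, 22860 and 24835 (lowest, median and highest) in 6 basal libraries and at 24437, 38450 and 62294 in 12 luminal ones. Its log2 fold change was -0.92 ± 0.15 (SE, adjusted p = 0.000244). Within each stage every basal library lay below every luminal one and the mean log2 difference was -1.63 at puberty, -0.49 in adulthood and -0.64 in pregnancy. Atf3, a stress-induced factor of the ATF family that mostly represses transcription (chromosome 1, 191170296 to 191218039, minus strand), was at 9421, 13010 and 19040 in basal and 13980, 21210 and 41612 in luminal libraries (-0.80 ± 0.14, adjusted p = 0.000363). Its basal libraries were likewise the lowest within each stage. Atf3 and Klf6 had the highest correlation of the 45 member pairs over the 18 libraries (Pearson r = 0.892), which share groups, depth and batch.

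Dusp1, the feedback phosphatase gene (chromosome 17, 26505590 to 26562128, minus strand), was at 10006, 12990 and 19186 in basal and 3204, 8530 and 17304 in luminal libraries (0.80 ± 0.15, adjusted p = 0.000808). Basal libraries lay above all luminal ones in adulthood and pregnancy and overlapped them at puberty. Junb, the gene of an AP-1 partner (chromosome 8, 84974484 to 84978718, minus strand), was at 12693, 18020 and 23011 in basal and 6934, 11410 and 18852 in luminal libraries (0.59 ± 0.13, adjusted p = 0.00189). Its pattern by stage was that of Dusp1, with which it correlated at r = 0.859. Fos (chromosome 12, 85473890 to 85477273, plus strand) was at 51322, 65870 and 93957 in basal and 22176, 44980 and 75624 in luminal libraries (0.53 ± 0.15, adjusted p = 0.0144), again without overlap in adulthood and pregnancy. Nr4a1 (chromosome 15, 101254269 to 101274795, plus strand) was at 8958, 18910 and 22184 in basal and 5369, 12260 and 23592 in luminal libraries (0.67 ± 0.16, adjusted p = 0.00494). For Nr4a1 the luminal average hides a split, since ER- libraries averaged 16760 ± 4510 and ER+ libraries 7721 ± 3553, against 17890 ± 4593 in basal libraries (SD, n = 6 each).

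Of the 4 genes not called, Fosb had a log2 fold change of -0.34 ± 0.16 (adjusted p = 0.109), Egr1 0.27 ± 0.17 (0.230), Jun 0.18 ± 0.11 (0.219) and Ier2 0.16 ± 0.11 (0.271), all adjusted p-values from limma. Fosb pointed both ways by stage, with basal libraries below every luminal library at puberty and among them later. Without the 6 adult libraries, Junb (0.27, adjusted p = 0.251), Nr4a1 (0.39, adjusted p = 0.227) and Fos (0.52, adjusted p = 0.0803) were no longer called. Leaving out puberty basal replicate 2 or adult basal replicate 2 also ended the call of Fos (adjusted p = 0.0531 and 0.0525), and leaving out puberty basal replicate 2 made Fosb a call at -0.47 (adjusted p = 0.034). With a replicate block within each stage 8 were called, Fosb (adjusted p = 0.00502) and Egr1 (0.043) in addition, where 45.0% of all genes were called. Fosb was also called under quantile normalization (0.00845) and without the 6 pregnancy libraries (0.0369). Over all 33 alternatives the adjusted p of Fos ran from 0.000796 to 0.0803, that of Junb from 8.68e-05 to 0.251 and that of Nr4a1 from 9.42e-05 to 0.227. Klf6, Atf3 and Dusp1 stayed called under each of the 33.

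Markers of other cell types also differed between basal and luminal libraries. The summed level of 11 endothelial genes was 6860 to 19199 in basal and 951 to 16224 in luminal libraries, that of 10 fibroblast genes 16974 to 161470 and 7023 to 82340, that of 7 pericyte genes 9861 to 16351 and 5273 to 11488, and that of 16 immune genes 1797 to 11096 and 982 to 8942. None of these markers was at 0 in all basal or in all luminal libraries. The sum of 14 basal markers was 198650 to 390776 in basal and 4374 to 49547 in luminal libraries. That of 10 pan-luminal markers was 20820 to 73301 in basal and 83511 to 179611 in luminal libraries. Among basal libraries it was 57571 to 73301 in adults, against 20820 to 48532 at puberty and 31808 to 42297 in pregnancy. The part of other cell types in the differences of the stress genes was not tested.

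**Figure D2:**
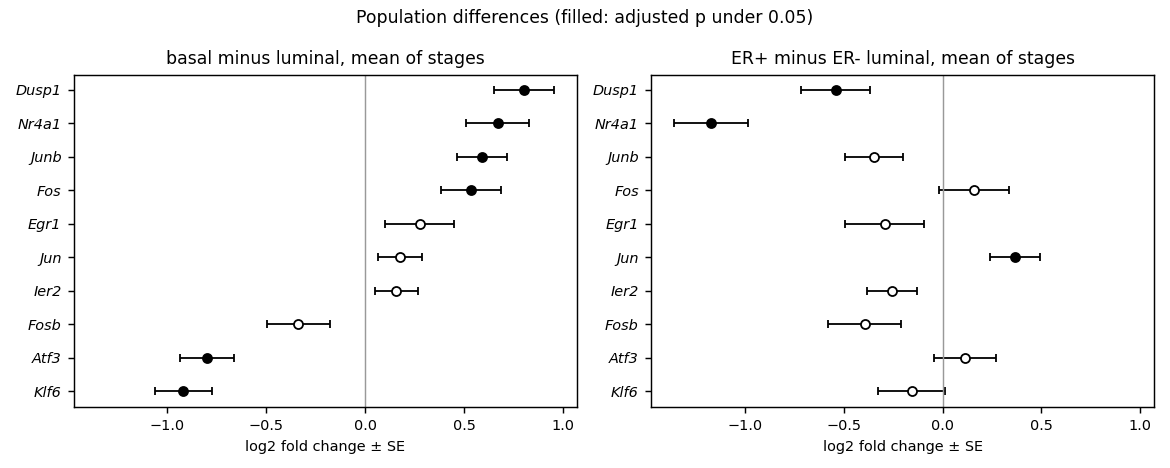
Log2 fold changes (horizontal axes) with standard errors of the 10 genes, basal minus luminal cells on the left and ER+ minus ER- luminal cells on the right, each averaged over 3 stages. Filled points passed an adjusted p under 0.05: 6 genes on the left, from Klf6 at -0.92 to Dusp1 at 0.80, and 3 on the right, with Nr4a1 at -1.17 farthest from 0.

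The 2 luminal populations were set against each other, averaged over stages, to ask whether they carry the genes alike. Nr4a1 was lower in ER+ cells at every stage, Dusp1 was lower and Jun higher, and the other 7 genes did not pass the test. Of the 10, 1 was called higher and 2 lower, against 25.5% of all genes called, 10.3% higher and 15.2% lower. The members' median was -0.274 and that of all genes -0.107.

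Nr4a1 had 5369 and 5690 in puberty ER+ cells, against 19118 and 23592 in puberty ER- cells. In adults it had 5911 and 6961 in ER+ cells, against 11036 and 13476 in ER- cells. In pregnancy it had 7634 and 14763 in ER+ cells, against 18380 and 14941 in ER- cells. No ER+ library reached an ER- library of its stage, although pregnancy ER+ replicate 2 came within 178 of the lower ER- library. The log2 fold change was -1.17 ± 0.19 (limma adjusted p = 0.000538), and it stayed a call under all 27 alternatives (adjusted p from 1.52e-06 to 0.013). By stage the difference was -1.94 at puberty, -0.93 in adulthood and -0.64 in pregnancy. The change of that difference between puberty and adulthood was 1.02 ± 0.45 and did not pass the test (adjusted p = 0.777), nor did that between adulthood and pregnancy (0.28 ± 0.45, adjusted p = 0.819). Of 12 ER- luminal markers, 4 milk protein genes (Lalba, Csn2, Csn3 and Ltf) summed to 146385 and 334069 in the pregnancy ER+ libraries, against 338113 and 38525 in the pregnancy ER- libraries. The other 8 summed to 20503 and 39274 in those ER+ libraries, against 47689 and 45208 in those ER- libraries, and to 12840 or less in the 4 puberty and adult ER+ libraries. The 16 immune markers summed to 982 to 3454 in ER+ and 1563 to 8942 in ER- libraries. The part of either in these differences was not tested.

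Dusp1 had 7111 and 9515 in puberty ER+ cells, against 11000 and 17304 in puberty ER- cells. Its adult values were 3204 and 4388 in ER+ cells and 5324 and 7919 in ER- cells, and in pregnancy 8089 and 9768 in ER+ overlapped 9865 and 8971 in ER- cells. Its log2 fold change was -0.54 ± 0.17 (limma adjusted p = 0.0363), lost under 12 of 27 alternatives, 7 of which left out 1 library (adjusted p from 6.77e-05 to 0.114 over all 27). Those libraries were puberty ER+ replicate 1 (0.0867), puberty ER- replicate 2 (0.0974), adult ER+ replicate 1 (0.0943), adult ER- replicate 2 (0.0984), pregnancy ER+ replicate 1 (0.0995) and both pregnancy ER- replicates (0.078 and 0.0593). Jun (chromosome 4, 95049034 to 95052222, minus strand), whose protein is the main partner of Fos in AP-1, was at 25592, 30640 and 61182 in ER+ and 18264, 26920 and 41143 in ER- libraries. Its log2 fold change was 0.36 ± 0.13 (adjusted p = 0.0471), lost under 18 of 27 alternatives (adjusted p from 0.0108 to 0.159). Of the 12 libraries, 8 ended the call of Jun when left out. These were puberty ER+ replicate 2 (0.145), puberty ER- replicate 1 (0.122), adult ER+ replicates 1 and 2 (0.0904 and 0.076), adult ER- replicate 1 (0.13), pregnancy ER+ replicates 1 and 2 (0.0749 and 0.107) and pregnancy ER- replicate 2 (0.141). With a replicate block within each stage 5 members were called, Fosb (-0.39, adjusted p = 0.00808) and Junb (-0.35, 0.0488) in addition, where 29.1% of all genes were called.

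Stages were compared within each population, in 90 tests of a gene. Of these 13 were called, 3 higher and 10 lower, in 7 of the 10 genes, and all 13 were in luminal cells. By comparison, 3.66% to 17.9% of all genes were called in luminal cells, 1.22% to 12.8% higher and 2.42% to 6.04% lower. In basal cells 2.07% to 9.73% of all genes were called. The comparisons between stages share libraries, so their values are given side by side and not counted as repeats. None of the 13 calls held when each of the 4 libraries behind it was left out in turn.

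Adult ER+ luminal cells had less Jun and Dusp1 than puberty ER+ cells. Jun had 26511 and 25592 in adult ER+ cells, against 40543 and 61182 in puberty ER+ cells (-0.94 ± 0.22, limma adjusted p = 0.0211). Dusp1 had 3204 and 4388 in adult cells, against 7111 and 9515 in puberty cells (-1.13 ± 0.30, adjusted p = 0.044). These 2 of 10 were called, both lower, where 5.73% of all genes were called, 1.22% higher and 4.50% lower. Klf6 (-0.93 ± 0.29, adjusted p = 0.0861), Atf3 (-0.80 ± 0.27, 0.116) and Junb (-0.77 ± 0.25, 0.0998) had adult libraries below both puberty libraries without passing the test. In all, 7 of the 10 had both adult libraries below both puberty libraries, where 24.7% of all genes did, Fosb and Egr1 overlapped, and Nr4a1 was higher in both adult libraries (0.21 ± 0.32, adjusted p = 0.794). The median of the 10 genes was -0.695, against -0.071 over all genes. The call of Jun was lost without puberty ER+ replicate 2 (adjusted p = 0.171), adult ER+ replicate 1 (0.0773) or adult ER+ replicate 2 (0.0866), and over its 16 alternatives the adjusted p ran from 0.00987 to 0.235. That of Dusp1 was lost without any 1 of the 4 libraries (puberty ER+ replicates 1 and 2, 0.0768 and 0.219, adult ER+ replicates 1 and 2, 0.226 and 0.0545), with a range of 0.00146 to 0.227 over 16 alternatives.

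Markers of other cell types moved in the same comparison. In adult against puberty ER+ cells 8 of 10 adipocyte markers were lower (median -4.73, summed level 406 to 415 in adults and 4520 to 20156 at puberty), as were 2 of 11 endothelial (median -2.99), 3 of 7 pericyte (-2.65) and 2 of 10 fibroblast markers (-2.11). In adult against puberty ER- cells 8 of 10 adipocyte markers were lower (median -4.27, 925 to 1067 in adults and 6447 to 29486 at puberty), and in adult against puberty basal cells 7 of 10 (median -5.11, 5118 to 5860 in adults and 26166 to 49944 at puberty). Their part in the results was not tested.

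In pregnancy, ER+ cells had more Dusp1 and Ier2 than in adulthood. Dusp1 had 8089 and 9768 in pregnancy, against 3204 and 4388 in adults (1.25 ± 0.30, limma adjusted p = 0.0124). Ier2 (chromosome 8, 84661331 to 84662852, minus strand) had 6424 and 8512 in pregnancy, against 4290 and 4545 in adults (0.74 ± 0.22, adjusted p = 0.0276). Of all genes 17.9% were called here, 12.8% higher and 5.05% lower, so 2 of 10 is near that share. Nr4a1 had 7634 and 14763 in pregnancy and 5911 and 6961 in adults (0.73 ± 0.32, adjusted p = 0.143). Dusp1 was no longer called without adult ER+ replicate 1 (0.0873) or pregnancy ER+ replicate 2 (0.105), and its adjusted p ran from 0.000287 to 0.105 over 16 alternatives. Ier2 was no longer called without adult ER+ replicate 1 (0.109), adult ER+ replicate 2 (0.0863) or pregnancy ER+ replicate 2 (0.232), with a range of 0.0158 to 0.232. Without pregnancy ER+ replicate 1, Nr4a1 was called at 1.20 (adjusted p = 0.0265). Markers of basal cells, in which Dusp1 was higher than in luminal cells, moved with it: 9 of 14 were higher and 1 lower (median 2.73), with a summed level of 35030 to 46920 in pregnancy and 4374 to 5538 in adults. Higher too were 7 of 12 ER- luminal, 4 of 11 endothelial (median 3.20), 6 of 10 fibroblast (2.71) and 3 of 7 pericyte markers. Their part in the results was not tested.

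Set against puberty, pregnancy ER+ cells had less Atf3 and Jun. Atf3 had 14098 and 19636 in pregnancy, against 32636 and 41612 at puberty (-1.15 ± 0.27, limma adjusted p = 0.0133), and Jun 29146 and 32142, against 40543 and 61182 (-0.70 ± 0.22, adjusted p = 0.0482). These were 2 of 10, both lower, where 13.1% of all genes were called, 7.34% higher and 5.73% lower. Nr4a1 was at 0.94 ± 0.32 (adjusted p = 0.0772). Atf3 was lost without puberty ER+ replicate 2 (0.126) or pregnancy ER+ replicate 1 (0.113), and its adjusted p ran from 0.0024 to 0.126. Jun was lost without puberty ER+ replicate 2 (0.399) or pregnancy ER+ replicates 1 (0.201) and 2 (0.143), ranging from 0.0134 to 0.399. Without pregnancy ER+ replicate 1, Nr4a1 was called at 1.42 (adjusted p = 0.0125).

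In ER- luminal cells adults had both libraries below both puberty libraries for 8 of the 10 genes, all but Fosb and Egr1, where 25.3% of all genes did. In limma 0 were called and 7 had an unadjusted p under 0.05, a threshold for which no share of all genes is given here. DESeq2 on recovered reads called 1, Dusp1 (adjusted p = 0.0289), and edgeR 0. Of all genes 3.66% were called, 1.24% higher and 2.42% lower. Dusp1 had 5324 and 7919 in adult ER- cells, against 11000 and 17304 in puberty ER- cells (-1.09 ± 0.30, adjusted p = 0.0685). The median of the 10 was -0.724, against -0.037 over all genes.

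Pregnancy ER- cells had less Fosb and Egr1, and more Ier2, than adult ER- cells. Fosb (chromosome 7, 19302696 to 19310051, minus strand) had 42960 and 27384 in pregnancy, against 85556 and 117824 in adults (-1.55 ± 0.32, limma adjusted p = 0.00964). Egr1 (chromosome 18, 34859823 to 34864984, plus strand) had 42187 and 24361, against 67501 and 88442 (-1.27 ± 0.35, adjusted p = 0.0332). Ier2 had 8896 and 7469, against 4097 and 5796 (0.74 ± 0.22, adjusted p = 0.0347). These were 3 of 10, 1 higher and 2 lower, where 14.4% of all genes were called, 8.89% higher and 5.51% lower.

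Pregnancy ER- replicate 2 was the lowest of all 18 libraries for Fos, Fosb, Jun and Egr1. Without it Fosb was at -1.23 (adjusted p = 0.0842), Egr1 at -0.87 (0.213) and Ier2 at 0.87 (0.0953) in pregnancy against adult ER- cells, and none was called. Fosb was also lost without adult ER- replicate 2 (0.085), Egr1 without adult ER- replicate 1 (0.0524) or 2 (0.186), and Ier2 without adult ER- replicate 1 (0.213) or pregnancy ER- replicate 1 (0.151). Over 16 alternatives the adjusted p ran from 0.000311 to 0.085 for Fosb, from 0.00772 to 0.213 for Egr1 and from 0.0212 to 0.213 for Ier2.

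Against puberty, pregnancy ER- cells had less of 4 AP-1 or ATF genes. Fosb had 42960 and 27384 in pregnancy, against 84892 and 135468 at puberty (-1.65 ± 0.32, limma adjusted p = 0.00625). Fos had 44824 and 22176, against 59723 and 75624 (-1.09 ± 0.31, adjusted p = 0.0337), Jun 27242 and 18264, against 33958 and 41143 (-0.74 ± 0.22, 0.0346), and Atf3 19228 and 13980, against 29487 and 33392 (-0.94 ± 0.27, 0.0356). These 4 of 10 were all lower, where 14.8% of all genes were called, 8.78% higher and 6.04% lower. Every pregnancy library lay below both puberty libraries for 9 of the 10 genes, all but Ier2, where 25.8% of all genes did. Basal markers were higher in this comparison for 6 of 14 and lower for 1, immune markers higher for 6 of 16, and adipocyte markers lower for 6 of 10. Of 12 ER- luminal markers 1 was higher and 5 lower, and 3 of 10 pan-luminal markers were lower. In pregnancy against adult ER- cells 5 of 14 basal and 5 of 11 endothelial markers were higher, and 1 basal and 6 of 12 ER+ luminal markers lower. Their part in the results was not tested.

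These 4 calls rested on single libraries too. Without pregnancy ER- replicate 2 the adjusted p was 0.0603 for Fosb, 0.245 for Fos, 0.31 for Jun and 0.243 for Atf3. Without puberty ER- replicate 2 it was 0.0672 for Fosb, 0.214 for Fos, 0.241 for Jun and 0.2 for Atf3, and without puberty ER- replicate 1 it was 0.0637 for Fos, 0.0586 for Jun and 0.0854 for Atf3. Over 16 alternatives it ran from 3.88e-05 to 0.0672 for Fosb, from 0.00407 to 0.245 for Fos, from 0.017 to 0.31 for Jun and from 0.0101 to 0.243 for Atf3. Without pregnancy ER- replicate 1, Egr1 was called as well, at -1.30 (adjusted p = 0.0448).

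Basal cells gave 0 calls among 30 stage tests of the members in limma, with 4 at an unadjusted p under 0.05 (share of all genes not given here). edgeR and DESeq2 on recovered reads called 0 as well, whereas 3 other settings with all libraries made calls. Fosb in adult minus puberty was called with a filter of 50 (adjusted p = 0.0441), a replicate block (0.0315) and quantile normalization (0.00813). Under quantile normalization Jun in adult minus puberty (0.0296) and Fosb in pregnancy minus adult (0.00964) were called too. Of all genes, 9.73% were called between adult and puberty basal cells (5.15% higher, 4.58% lower), 7.26% between pregnancy and adult (2.92% higher, 4.34% lower) and 2.07% between pregnancy and puberty (0.668% higher, 1.40% lower). Fosb came closest, with 65595 and 89484 in adult basal cells, against 29083 and 49639 at puberty (1.01 ± 0.32, adjusted p = 0.0688). Jun ran the other way, with 26778 and 25327 in adults, against 36489 and 46972 at puberty (-0.67 ± 0.22, adjusted p = 0.0696). Without puberty basal replicate 2, Fosb (1.40, adjusted p = 0.0365) and Nr4a1 (1.21, adjusted p = 0.0278) were called in adult against puberty basal cells.

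**Figure D3:**
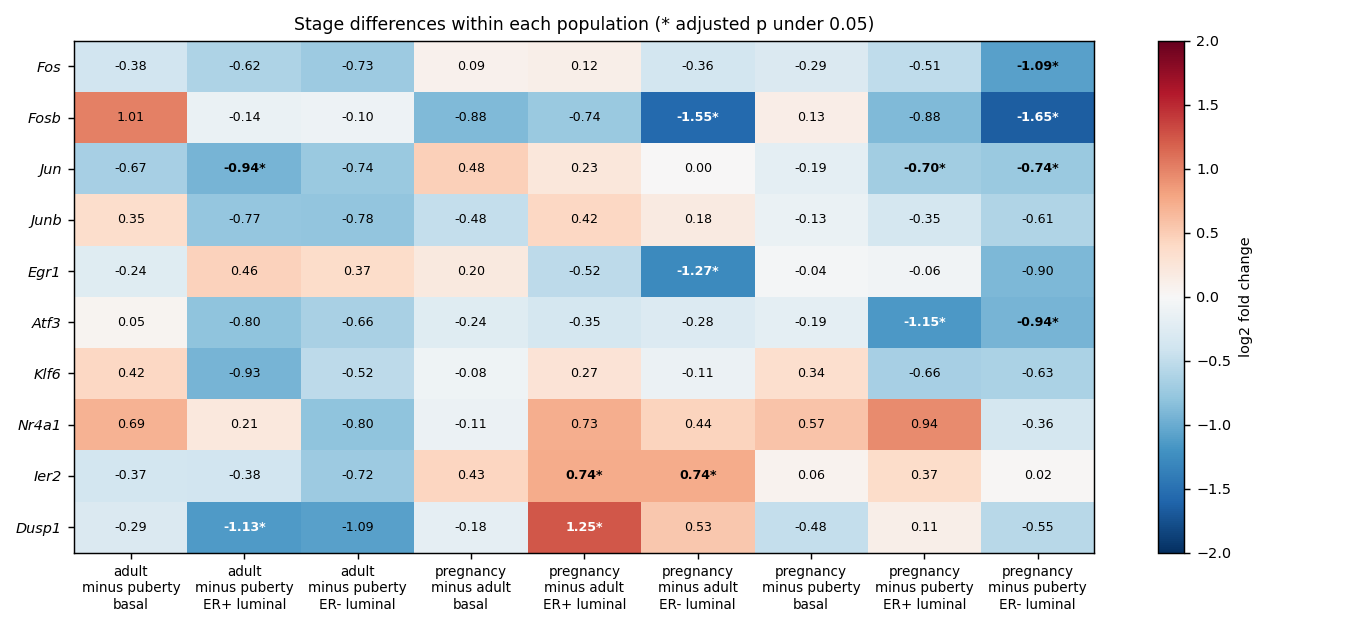
Log2 fold changes (colour scale and printed values) of the 10 genes in the 9 comparisons of stages, with basal, ER+ luminal and ER- luminal cells side by side for each. Asterisks mark the 13 values with an adjusted p under 0.05, all in luminal cells, from -1.65 for Fosb in pregnancy against puberty ER- cells to 1.25 for Dusp1 in pregnancy against adult ER+ cells.

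Whether a stage effect differed between populations was tested directly. Of 60 such tests of the members, 0 were called in limma and 12 had an unadjusted p under 0.05 (share of all genes not given here). edgeR on recovered reads called 0, and DESeq2 called 1, for Dusp1. Calls over all genes came to 4.65% for adult minus puberty in ER+ minus basal cells (3.55% lower), 3.28% in ER- minus basal cells (2.32% lower) and 0.0717% in ER+ minus ER- cells. For pregnancy minus adult they came to 8.46% (6.61% higher), 1.98% and 2.07% in the same order. The members nearest to a call were Dusp1 in pregnancy minus adult, ER+ minus basal (1.43 ± 0.42, adjusted p = 0.0571), and Klf6 in adult minus puberty, ER+ minus basal (-1.35 ± 0.41, adjusted p = 0.0856). Under other settings Dusp1 in that comparison was called with a filter of 50 (adjusted p = 0.0466), with quantile normalization (0.0425), without robust moderation (0.0484) and with a replicate block (0.00332). Fosb in adult minus puberty was called under quantile normalization against basal cells, at -1.74 in ER+ (adjusted p = 0.0143) and -1.54 in ER- cells (0.0268).

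Over the 11157 more highly expressed genes, same-numbered libraries of a stage deviated together. The tests were therefore repeated with the replicate number as a block within each stage, which leaves 6 residual degrees of freedom. In pregnancy the members did not deviate together. Replicate 2 was higher for 10 of 10 in ER+ cells and lower for 10 of 10 in ER- cells. With this block 10 of the 60 tests were called in limma. In adult minus puberty these were Fosb (adjusted p = 0.0118), Junb (0.0416) and Dusp1 (0.0127) for ER+ minus basal, and the same 3 for ER- minus basal (0.0176, 0.0463 and 0.0208). In pregnancy minus adult they were Dusp1 for ER+ minus basal (0.000215), Egr1 (0.0185) and Dusp1 (0.0416) for ER- minus basal and Dusp1 for ER+ minus ER- cells (0.0428). All genes called with this block came to 7.13%, 5.50% and 0.188% for adult minus puberty in ER+ minus basal, ER- minus basal and ER+ minus ER- cells, and to 12.1%, 3.96% and 3.86% for pregnancy minus adult. Whether the stage effect of these genes differs between populations thus depended on the model.

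Without the block, these tests depended on single basal libraries. Without adult basal replicate 1, Dusp1 in pregnancy minus adult, ER+ minus basal, was called at 1.84 (adjusted p = 0.0174). Without puberty basal replicate 2, adult minus puberty differed between ER+ and basal cells for Junb (-1.53, adjusted p = 0.0141), Atf3 (-1.36, adjusted p = 0.0175) and Klf6 (-1.80, adjusted p = 0.0129). Between ER- and basal cells it then differed for Junb (-1.55, adjusted p = 0.0172), Atf3 (-1.22, adjusted p = 0.0383) and Nr4a1 (-2.01, adjusted p = 0.0117). In that fit a basal group left with 1 library is assumed to vary like the other groups.

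The 2 libraries of a group often differed in all 10 genes at once. Replicate 2 was higher than replicate 1 for 10 of 10 genes in puberty ER+, puberty basal, adult ER- and pregnancy ER+ cells, and lower for 10 of 10 in pregnancy ER- cells. In the other 4 groups 6 or 7 genes were higher in replicate 2. The numbers have no order of their own. The gap was widest in puberty basal cells, where the median member differed by 0.724 on the log2 scale, against 0.189 for the 11157 more highly expressed genes, and 5 of 10 exceeded the 0.69 that holds 90% of these genes. There Nr4a1 had 8958 and 18463, Atf3 9421 and 19040, and Klf6 12547 and 23347. In puberty ER+ cells the medians were 0.498 for the members and 0.232 for these genes, in pregnancy ER+ cells 0.407 and 0.257, and in adult ER- cells 0.365 and 0.264. Pregnancy basal cells were the most even, at 0.075 for the members and 0.145 for these genes, and in adult basal and adult ER+ cells the members (0.163 and 0.235) also differed less than these genes (0.314 and 0.267).

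Pregnancy ER- cells went against their own libraries. The members were lower in replicate 2 by a median of 0.439, with Fos at 44824 in replicate 1 and 22176 in replicate 2, while 82.4% of the 11157 genes were higher in replicate 2 and their median ratio was 0.264. Mitochondrial transcripts made up 3.26% of replicate 1 and 0.62% of replicate 2, the lowest share of the 18 libraries. Of 12 ER- luminal markers, the milk protein genes Lalba, Csn2, Csn3 and Ltf summed to 338113 in replicate 1 and 38525 in replicate 2. That fall was in Csn2 (253329 and 21279) and Csn3 (81042 and 13187), not in Lalba (714 and 905) or Ltf (3028 and 3154). The other 8 markers summed to 47689 and 45208. The part of RNA quality or of isolation in these differences was not tested.

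**Figure D4:**
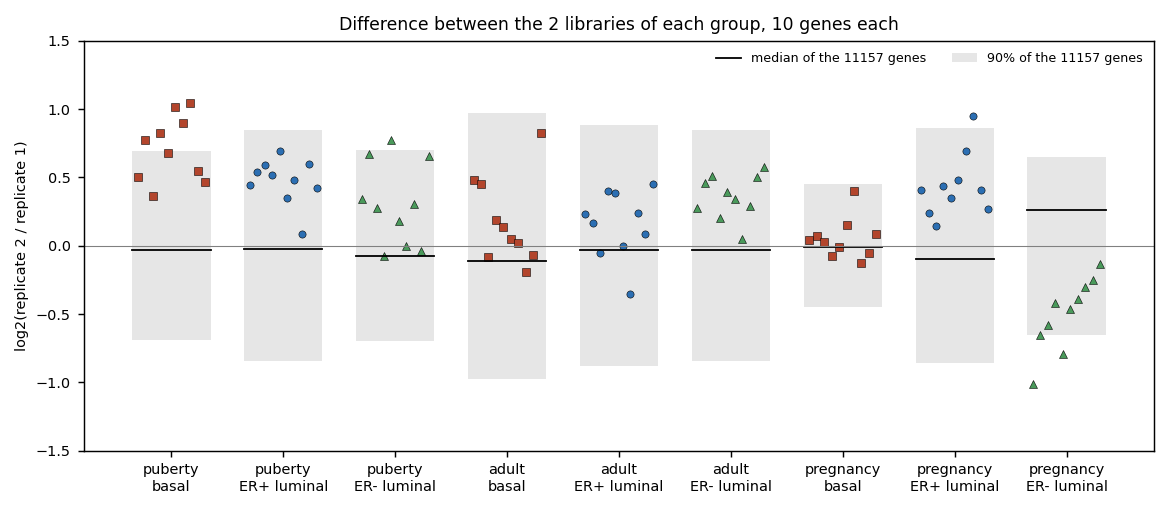
Log2 ratio of replicate 2 to replicate 1 (vertical axis) of each of the 10 genes in the 9 groups, with 1 point per gene. Grey bars hold 90% of the 11157 more highly expressed genes by the size of their ratio and black lines mark their median. All 10 points lie above 0 in puberty basal, puberty ER+, adult ER- and pregnancy ER+ cells and below 0 in pregnancy ER- cells, where the median of these genes is 0.264.

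Across libraries the members did not all vary together. Beside Atf3 with Klf6 and Junb with Dusp1, Fos correlated with Jun at r = 0.809, with Junb at 0.73 and with Dusp1 at 0.655. Dusp1 also correlated with Ier2 at 0.715 and with Nr4a1 at 0.668, and Nr4a1 with Junb at 0.687 and with Ier2 at 0.621. Fosb correlated with Atf3 at 0.636 and with Egr1 at 0.618. Atf3 and Nr4a1 were at -0.297 and Fosb and Ier2 at -0.262. These are descriptions over 18 libraries that share group and depth, and carry no p. Among 10625 other genes, the 8 whose log2 values were most like the mean of the members' standardised levels were Zfp36 (r = 0.883), Ifi204 (0.795), Trib1 (0.758), Ptx3 (0.747), Ifi205 (0.742), Btg2 (0.738), Tnfaip6 (0.737) and Ccdc82 (0.736). Zfp36, whose protein speeds the decay of AU-rich messages, ran from 10693 in pregnancy ER+ replicate 1 to 22303 in puberty ER- replicate 2. Ifi204 and Ifi205 are close paralogs, between which reads can be split, so their values are uncertain.

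Other immediate-early genes were counted beside the members. Of 50 such genes, 23 were higher and 12 lower in basal than in luminal cells, led by Ctgf (5.17 ± 0.43, limma adjusted p = 4.20e-06), a secreted matrix protein gene and target of SRF and YAP, by Arc (3.81 ± 0.17, adjusted p = 3.17e-10), and by the zinc finger gene Egr2 (2.96 ± 0.17, adjusted p = 1.03e-08). Their median was 0.270, against -0.031 over all genes, of which 42.5% were called, 20.9% higher and 21.5% lower. Between ER+ and ER- cells, 7 were higher and 30 lower, with a median of -0.706, where 25.5% of all genes were called, 10.3% higher and 15.2% lower. The nuclear receptor genes Nr4a2 (-2.53 ± 0.30, adjusted p = 8.78e-05) and Nr4a3 (-2.28 ± 0.26, adjusted p = 5.91e-05), paralogs of Nr4a1, were lower in ER+ cells, as were Egr3 (-2.39 ± 0.18, adjusted p = 2.96e-07) and the phosphatase gene Dusp5 (-2.02 ± 0.27, adjusted p = 0.000189).

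By stage, these 50 genes moved differently in luminal and basal cells. From puberty to adulthood 1 was higher and 14 lower in ER+ cells, 1 and 10 in ER- cells, and 14 and 0 in basal cells. Of all genes 5.73% (4.5% lower), 3.66% (2.42% lower) and 9.73% (5.15% higher) were called in the same order. In ER+ cells the largest were Dusp2 (-3.36 ± 0.76, limma adjusted p = 0.0154), Gadd45g (-3.31 ± 0.37, adjusted p = 7.59e-05), the prostaglandin synthase gene Ptgs2 (-2.24 ± 0.43, adjusted p = 0.007) and Cebpd (-1.89 ± 0.19, adjusted p = 2.25e-05). Dusp2 had only 8 and 25 in adult ER+ cells, against 323 and 75 at puberty, and Ptgs2 86 and 50, against 210 and 466. The value of 1 read in these adult libraries was 7.7561 and 8.2472, so Dusp2 rested on very few reads. The calls of these other genes were not followed with single libraries left out. In basal cells Nr4a3 (2.35 ± 0.46, adjusted p = 0.00955), Nr4a2 (1.99 ± 0.52, adjusted p = 0.0348), Arc (1.83 ± 0.33, adjusted p = 0.00418) and Dusp5 (1.70 ± 0.46, adjusted p = 0.0406) were higher. The test of the difference itself called 21 of the 50 for ER+ minus basal and 16 for ER- minus basal, all lower, beside the 3.55% and 2.32% of all genes given above. From adulthood to pregnancy 20 were higher and 1 lower in ER+ cells, 10 and 1 in ER- cells, and 1 and 9 in basal cells. All genes called came to 17.9% (12.8% higher), 14.4% (8.89% higher) and 7.26% (4.34% lower) in the same order. The difference between ER+ and basal cells was called for 17, all higher, against 6.61% of all genes, and that between ER- and basal cells for 5, all higher, where 1.98% of all genes were called. The first was led by Nr4a2 (4.66 ± 0.73, adjusted p = 0.00308) and Nr4a3 (3.62 ± 0.65, adjusted p = 0.00583). Adult luminal libraries, which enter every luminal count here, were the shallowest and richest in mitochondrial transcripts, and in adult against puberty basal cells 7 of 12 ER- luminal markers (median 2.29) and 4 of 10 pan-luminal markers (median 1.28) were higher. The part of these in the counts was not tested.

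The remaining AP-1 family of 13 genes had 3 higher and 5 lower in basal cells and 1 higher and 6 lower in ER+ than in ER- cells, where 42.5% and 25.5% of all genes were called either way. Fosl1 (-2.23 ± 0.21, limma adjusted p = 3.85e-06) and Fosl2 (-1.46 ± 0.14, adjusted p = 2.83e-06), Fos relatives that outlast the first wave, were lower in ER+ cells. In adult against puberty basal cells 5 were higher and 0 lower, with Fosl1 at 3228 and 3765 in adults, against 230 and 496 at puberty (3.36 ± 0.36, adjusted p = 0.000198). In pregnancy against adult basal cells 0 were higher and 5 lower. Of all genes 9.73% were called in the first of these comparisons (5.15% higher) and 7.26% in the second (4.34% lower). Of 25 upstream kinase, SRF and CREB genes, 5 were higher and 7 lower in basal cells, near the 42.5% of all genes called. Those higher included Srf itself (0.63 ± 0.08, adjusted p = 1.20e-05), its coactivator gene Mkl1 (0.84 ± 0.09, adjusted p = 1.56e-06) and Map2k6 (1.27 ± 0.19, adjusted p = 7.55e-05).

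Heat shock and chaperone genes, another stress programme, were counted likewise. Of 23, 4 were higher and 3 lower in basal cells and 4 higher and 0 lower in ER+ than in ER- cells, below the 42.5% and 25.5% of all genes called. By stage 0 were higher and 4 lower in adult than in puberty ER+ cells, and 0 and 8 in pregnancy than in puberty ER+ cells, where 5.73% and 13.1% of all genes were called. In pregnancy against adulthood 3 were higher and 5 lower in ER+ cells, and 5 and 2 in ER- cells (17.9% and 14.4% of all genes). Against puberty, ER- cells gave 0 and 1 in adulthood and 4 and 4 in pregnancy (3.66% and 14.8%). Basal cells gave 2 and 2 in adulthood against puberty and in pregnancy against adulthood, and 0 and 2 in pregnancy against puberty (9.73%, 7.26% and 2.07%). The inducible Hsp70 gene Hspa1a was lower in adult (-2.63 ± 0.36, limma adjusted p = 0.000339) and pregnancy (-2.74 ± 0.36, adjusted p = 0.000133) than in puberty ER+ cells, and in pregnancy than in puberty ER- (-1.70 ± 0.36, adjusted p = 0.00582) and basal cells (-1.77 ± 0.36, adjusted p = 0.0171). In adult ER- cells Hspa1a had 171 and 276, against 724 and 953 in puberty ER- cells (-1.93), the largest fall among the 23 genes there. Reads can be split between Hspa1a and its near-identical copy Hspa1b, which was at -1.52 ± 0.25 in adult against puberty ER+ cells (adjusted p = 0.00166).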

How the data were processed

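Per the labels, RNeasy micro RNA went into Ovation Solo libraries. The authors deposited their signal values as whole numbers in 1 table. Per the submitters' processing notes, STAR, Picard and HTSeq were used with GRCm38, with versions, strand use and duplicate handling not given in the sources used here. Low values rise in steps that are a fixed amount per library, so the deposited signal was read as counts scaled to 20000000 and rounded up. Inverting this returned 99.8% to 100.0% of values. Of 18 libraries, 3 met a stricter test without rounding, so the depth and count models of the other 15 rest on inferred rounding. Of 46868 rows, 790 repeated a gene ID, and 46257 IDs were kept.

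limma 3.58.1 (R 4.3.3, trend and robust) was fitted to log2(value + 1) of 22315 genes at 10 or more in 2 libraries or more, fitting all 9 group means (9 residual degrees of freedom), 2-sided. Fold changes on this scale understate those of low genes. Alternatives were other pseudocounts, filters and scalings, a replicate block, fewer samples, edgeR 4.0.16 and DESeq2 1.42.0 on recovered reads. Positions are from GENCODE on GRCm38, counted from 1. Over the 11157 more highly expressed genes, same-numbered libraries of a stage deviated together (9 of 9 pairs of groups, r from 0.155 to 0.539). A replicate block within each stage was therefore added after seeing the data. The fit was tested on simulated data. Of each other list at most the 4 called genes with the largest change per comparison are named. Genes of like pattern were the 8 with the highest correlation. Members and lists were chosen with earlier results of these data known. Python 3.11.15 was used.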

Additional observations from a re-analysis of the deposited data

Results flagged for a closer look

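Between puberty and pregnancy, the Nr4a1 libraries of the 2 luminal populations separated in opposite directions, without a call in either. In ER+ cells both pregnancy libraries (7634 and 14763) lay above both puberty libraries (5369 and 5690), with a log2 fold change of 0.94, whereas in ER- cells both pregnancy libraries (18380 and 14941) lay below both puberty libraries (19118 and 23592), at -0.36. Of all genes, 32% had both pregnancy libraries above both puberty libraries in ER+ cells, and 25.8% had both below in ER- cells. The higher ER+ value in pregnancy came from replicate 2, which held 2096 of Esr1 and 11434 of the ER- marker Elf5. The part of this in the change was not tested. Neither change passed the test on its own (limma adjusted p = 0.0772 and 0.515). The change in ER+ cells was called with a replicate block (0.0493), under quantile normalization (0.0295), in DESeq2 (0.0427) and without pregnancy ER+ replicate 1 (0.0125), and the difference between the populations over this pair of stages was not tested.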

How the results depend on the processing

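Of the 9 population calls, Nr4a1 in ER+ minus ER- cells and Klf6, Atf3 and Dusp1 in basal minus luminal cells held under every alternative, and none of the 13 stage calls held without each library. No member called at the outset turned its sign. Counts of members called were 2 in adult minus puberty ER+, 2 in pregnancy minus adult ER+, 2 in pregnancy minus puberty ER+, 0 in adult minus puberty ER-, 3 in pregnancy minus adult ER-, 4 in pregnancy minus puberty ER-, 3 in ER+ minus ER-, 6 in basal minus luminal cells and 0 elsewhere. Pseudocount 10 gave 1 in adult minus puberty ER+, and pseudocount 0.5 gave 1 in pregnancy minus puberty ER+. With no filter, adult minus puberty ER+, both comparisons of pregnancy with puberty in luminal cells and ER+ minus ER- gave 1 each. A filter of 50 gave 1 in adult minus puberty basal and 1 in the ER+ minus basal difference of pregnancy minus adult. Quantile normalization gave 4 in pregnancy minus puberty ER+, 2 in adult minus puberty ER-, 1 in pregnancy minus adult ER-, 2 in pregnancy minus puberty ER-, 2 in adult minus puberty basal, 1 in pregnancy minus adult basal, and 1 in the ER+ minus basal and ER- minus basal differences of adult minus puberty and the ER+ minus basal difference of pregnancy minus adult. Median-ratio factors gave 0 in adult minus puberty ER+ and, as TMM did, 1 in pregnancy minus adult ER+, pregnancy minus puberty ER+ and ER+ minus ER-. Without robust moderation pregnancy minus puberty ER+ and the ER+ minus basal difference of pregnancy minus adult gave 1. The compared groups alone gave 0 in the 3 ER+ comparisons. edgeR gave 1 in these 3, in pregnancy minus adult ER- and in ER+ minus ER-. DESeq2 gave 1 in pregnancy minus adult ER+, 4 in pregnancy minus puberty ER+, 1 in adult minus puberty ER- and 1 in the ER+ minus basal difference of pregnancy minus adult. Without the 6 adult libraries ER+ minus ER- gave 1 and basal minus luminal 3. Except for the replicate block within each stage, the shares of all genes given above are those of the limma fit to all 18 libraries. No such share is given beside the counts under other settings or with single libraries left out. A changed count is therefore not read as a result about the members. Where alternatives differ, the cause was not tested.

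Leaving out 1 library at a time gave 0 to 1 in adult minus puberty ER+, 0 to 3 in pregnancy minus adult ER+, 0 to 2 in pregnancy minus puberty ER+, 0 to 2 in pregnancy minus adult ER-, 0 to 5 in pregnancy minus puberty ER-, 0 to 2 in adult minus puberty basal, 1 to 2 in ER+ minus ER-, 5 to 6 in basal minus luminal, 0 to 3 in both differences of adult minus puberty against basal cells, and 0 to 1 in the ER+ minus basal difference of pregnancy minus adult. The replicate block gave 4 in pregnancy minus puberty ER+, 1 in adult minus puberty ER-, 1 in adult minus puberty basal and 1 in the ER+ minus basal difference of pregnancy minus adult. Between stages libraries share only a number, since 7 of 27 such pairs of groups had deviations correlated above 0.1 (range -0.335 to 0.226). Over all pairs, those within a stage included, the largest positive correlation exceeded the largest negative one in 8 of 9 groups. A replicate block within each stage, chosen after seeing the data, cannot be fitted to comparisons of stages. It gave 5 in ER+ minus ER-, 3 in both differences of adult minus puberty against basal cells, and in pregnancy minus adult 1 in the ER+ minus basal, 2 in the ER- minus basal and 1 in the ER+ minus ER- difference.

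Scaling moved the median of all genes under quantile normalization to -0.173 from -0.031 in basal minus luminal, to 0.032 from -0.107 in ER+ minus ER- and to -0.109 from 0.205 in pregnancy minus adult ER+ cells. Strand use is unknown, and exons of Jun share 232 bases with Junos (mean 338.3), those of Junb 173 with Prdx2 (1433) and those of Dusp1 11 with Ergic1 (1739) on the opposite strand, whose reads cannot then be told apart.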
